A study of Mus musculus with 16 samples.

Results

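Slit2, Slit3, Robo1, Robo2, Robo4, Plxnd1, Sema3c and Sema3f are 8 guidance genes, and their RNA was followed in endothelial cells from mouse embryos that differed in their Notch1 alleles. The 8 were taken by symbol from the 22096 gene symbols of the deposited tables, and each has 1 transcript there. The set was selected on earlier results of these data, in which the Slit2 levels of 12/- libraries were lower than those of +/+ libraries. For the choice of the other 7 no measured value is recorded. So the levels of all 8 genes in that pair, and every value of Slit2 that rests on 12/- or +/+ libraries, are given as descriptions with no test. Of the 8 genes, 6 had a mean of at least 1 FPKM (fragments per kilobase of transcript relative to sequencing depth) and entered the tests with 10550 genes in all. Robo2 and Sema3c did not.

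Cells carrying CD31, a surface protein of endothelium, were sorted from whole embryos at embryonic day 9.5, and the study asked how Notch1 dose affects their expression. On activation the Notch1 receptor is cut, and its intracellular domain moves to the nucleus. The 12/- embryos (3 libraries) carried a deleted Notch1 allele and the 12 allele, which encodes Notch1 with the intracellular domain of Notch2, and the labels note endothelial dysfunction. The 12/vg embryos (1 library) carried the 12 allele and the vg allele, a single amino acid change that makes the released domain less stable, and the labels note partial dysfunction. The descriptions of 12/- and 12/vg also mention a Notch1 allele beside these, and the genotype labels were followed. The +/12, +/- and +/vg embryos (3 libraries each) carried 1 wild-type allele beside the 12, the deleted or the vg allele, and +/+ embryos (3 libraries) carried 2. Endothelial development is given as normal in those 4 genotypes. Wild type is spelled in 2 ways in the labels, taken as 1 group. The number of embryos behind each library is not stated, so the p-values cover only the spread among these libraries, part of which may be technical.

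Slits are secreted proteins that signal through Robo receptors. They were first known as repellents of growing axons, and in vessels they guide the migration and sprouting of endothelial cells. Robo4 is a Robo family member found mainly in endothelium. Class 3 semaphorins are secreted ligands that act through plexins, mostly with neuropilins as co-receptors, and plexin D1 is the plexin of embryonic vessels, where it restrains and patterns sprouts.

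Promoter windows of RefSeq (assembly GRCm38.p6, 250 bases before to 50 bases after the annotated start) were matched for 7 of the 8 genes, in 9 windows. Sema3f was not among them. The windows of 3 genes are printed 5′ to 3′ on the gene's strand. Slit2 is shown as the gene on which the choice turned, and Robo4 and Plxnd1 as the receptors with the highest levels of the 8 in these cells. The Slit2 window is chr5:47982905-47983204 (+ strand), that of Robo4 chr9:37401722-37402021 (+ strand) and that of Plxnd1 chr6:115994956-115995255 (- strand). Capitals mark matches to 5 motifs searched on both strands: TGGGAA, the core bound by RBPJ, the DNA-binding partner of Notch; ACGTG and GCGTG, the cores bound by hypoxia-inducible factors; AGGAAG, an ETS family core; and TATAAA, the TATA box.
Slit2: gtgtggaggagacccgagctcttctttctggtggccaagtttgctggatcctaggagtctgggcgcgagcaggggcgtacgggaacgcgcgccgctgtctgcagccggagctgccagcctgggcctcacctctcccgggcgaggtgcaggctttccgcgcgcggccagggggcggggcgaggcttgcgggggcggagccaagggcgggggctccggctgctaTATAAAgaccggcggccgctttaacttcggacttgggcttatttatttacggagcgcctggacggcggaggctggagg
Robo4: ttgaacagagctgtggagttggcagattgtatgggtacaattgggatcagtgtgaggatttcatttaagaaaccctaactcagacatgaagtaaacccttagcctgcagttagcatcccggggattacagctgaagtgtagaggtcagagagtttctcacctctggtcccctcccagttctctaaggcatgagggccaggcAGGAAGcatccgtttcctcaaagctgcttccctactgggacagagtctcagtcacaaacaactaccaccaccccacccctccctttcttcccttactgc
Plxnd1: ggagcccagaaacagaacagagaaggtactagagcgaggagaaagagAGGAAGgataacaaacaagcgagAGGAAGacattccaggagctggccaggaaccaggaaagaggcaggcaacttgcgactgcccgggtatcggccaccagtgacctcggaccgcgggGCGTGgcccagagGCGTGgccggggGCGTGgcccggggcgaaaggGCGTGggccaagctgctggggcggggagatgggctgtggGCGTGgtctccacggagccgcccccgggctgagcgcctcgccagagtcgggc
The Slit2 window held TATAAA with its first base 28 bases before the start (-28) and none of the other 4 motifs. Among 32851 promoter windows of the same length, 13.6% held TATAAA on either strand. The Robo4 window held 1 AGGAAG, at -49. The Plxnd1 window held 5 copies of GCGTG, at -86, -73, -61, -41 and -2, and 2 of AGGAAG, at -203 and -180. GCGTG was in 32.4% and AGGAAG in 35.4% of all windows. TGGGAA, in 25.6% of all windows, was in none of the 3 printed, and the match among the 9 windows was in 1 of the 3 windows of Robo2, at -118. ACGTG was in 19.6% of all windows and in none of the 3 printed. No 2 matches overlap in the printed windows, and they describe letters, not binding.

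The 14 deeper libraries held between 1.11 and 1.80 gigabases of aligned sequence, and the 12/vg library and +/- replicate 2 held 0.262 and 0.189. Notch1 was read in every library and its level did not follow the deleted allele. It was at 15.4 to 19.7 in 12/-, 15.4 in 12/vg and 14.5 to 16.1 scaled FPKM in +/12 libraries. It was at 16.4 to 23.2 in +/-, 20.5 to 23.3 in +/vg and 17.5 to 23.3 in +/+. The means were lower in the genotypes with the 12 allele (at most 17.1) than in those without it (at least 19.9), while libraries of 12/- and +/- overlapped. The removed part of the gene is not given, so these Notch1 values do not check the labels. Notch2, whose intracellular domain the 12 allele encodes, was at 3.40 to 4.38 in 12/-, 4.28 in 12/vg and 3.90 to 4.41 in +/12. It was at 2.25 to 3.41 in +/-, 2.10 to 2.92 in +/vg and 2.68 to 3.31 in +/+. All 10 endothelial markers were present in every library (Cdh5 from 149 to 244, Pecam1 from 46.1 to 89.3 scaled FPKM). Markers of neural tube and neurons summed to 0.523 to 1.29 in 12/-, 1.41 in 12/vg and at most 3.59 in any library, and Olig2 and Neurog2 were listed at 0 in 7 libraries each. Neural crest and glial markers summed to at most 1.31. Platelet markers were abundant (Pf4 from 225 to 1779), and cardiomyocyte, epithelial, mesenchymal and erythroid markers were also present. In these bulk samples fewer cells of a type and less RNA per cell cannot be told apart. A number in the name of each deposited table fell between 203 and 248 for 9 libraries, among them all 12/-, 12/vg and +/12 libraries, and between 371 and 380 for 7, among them all +/+ libraries. The +/- and +/vg groups held 2 high and 1 low number each. The labels name no batch.

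Levels below are FPKM divided by a scaling factor per library (scaled FPKM), with the SD over 3 libraries. The 8 genes spanned a wide range. Plxnd1 averaged 115 FPKM over the 16 libraries, above 98.1% of all genes, and Robo4 averaged 17.8 FPKM, above 89.2%. Robo1 stood at 5.68 FPKM, and Slit2, Slit3 and Sema3f at 2.20, 1.77 and 1.51 FPKM. Robo2 and Sema3c, at 0.0742 and 0.0602 FPKM, were near 0 in every library. So in these cells the endothelial receptors led and the ligands were low.

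**Figure D1:**
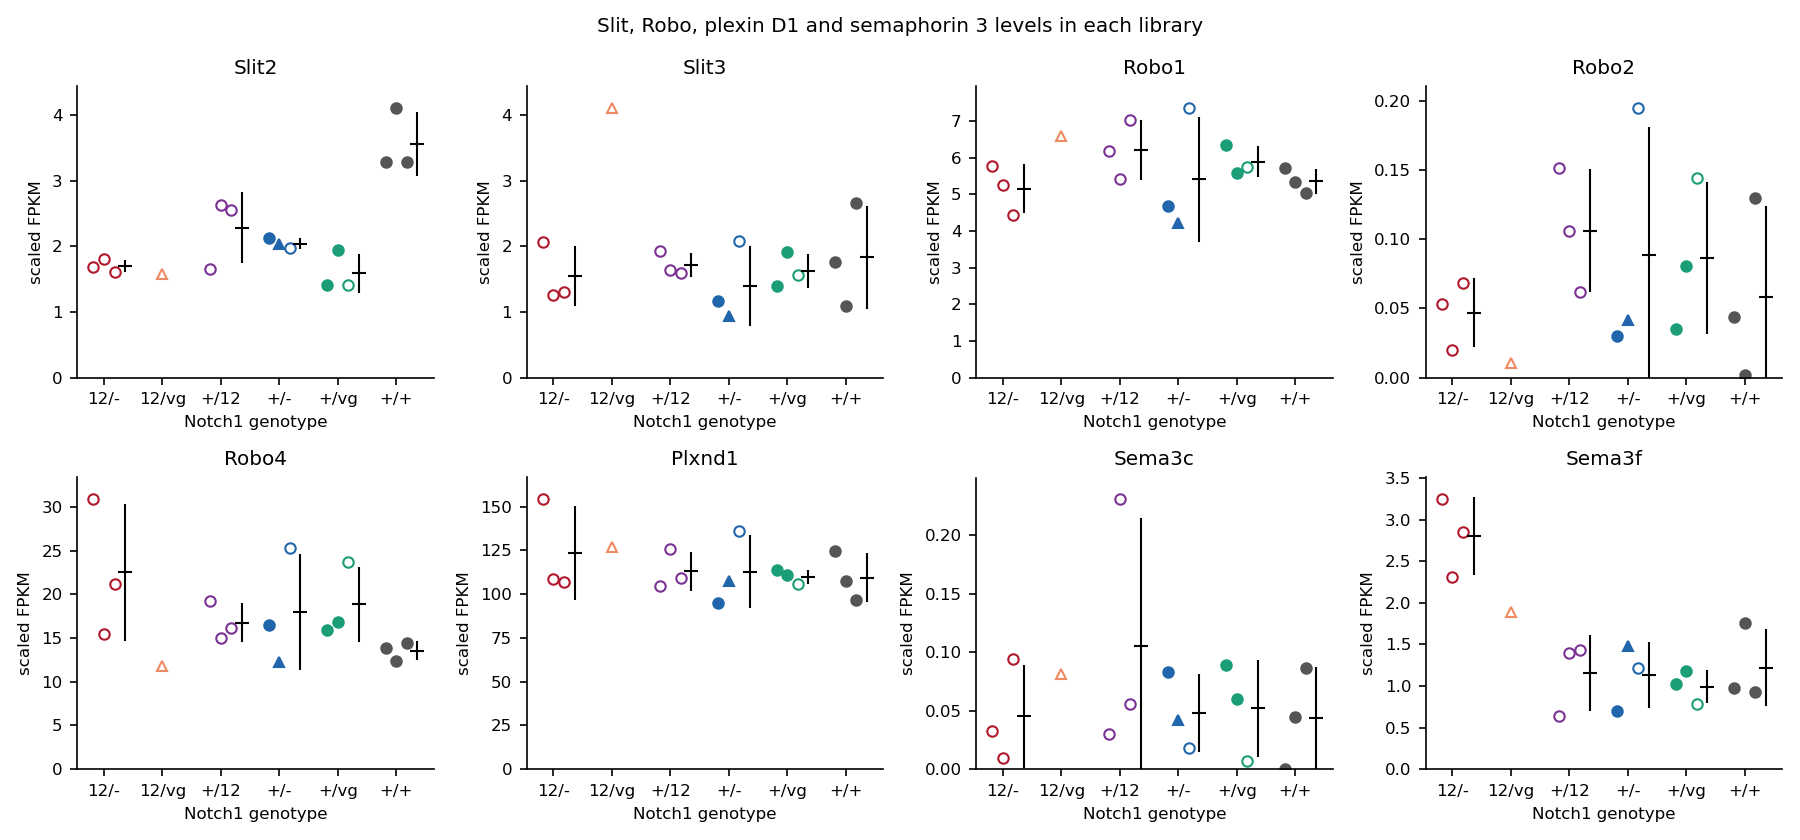
Scaled FPKM of the 8 genes (vertical axis from 0, a separate scale in each panel) in each of 16 libraries by Notch1 genotype; filled marks are libraries with high table numbers, open marks those with low numbers, triangles the 2 shallow libraries, and bars the mean and SD of 3 libraries, drawn down to 0 where the SD reaches below it. Slit2 is highest in the 3 +/+ libraries (3.28 to 4.11) and Sema3f in the 3 12/- libraries (2.31 to 3.25), and the Plxnd1 groups overlap.

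Slit2 (chr5:48374394-48697017 in mm9, the build of the deposited tables, with starts counted from 1), a ligand of Robo1 and Robo2, was highest in wild-type embryos. It stood at 1.69, 1.80 and 1.61 scaled FPKM in 12/- libraries, 1.57 in the 12/vg library, 1.66, 2.63 and 2.56 in +/12, 2.13, 2.03 and 1.97 in +/-, 1.41, 1.94 and 1.41 in +/vg, and 3.28, 4.11 and 3.28 in +/+ libraries. Each +/+ library lay above all 13 other libraries, as for 0.455% of the genes tested. The choice of the set used part of that separation, so nothing is read from this share. From low to high, the means were 1.59 ± 0.302 scaled FPKM in +/vg, 1.70 ± 0.0973 in 12/-, 2.04 ± 0.0782 in +/-, 2.28 ± 0.539 in +/12 and 3.56 ± 0.481 in +/+ (SD, n = 3 each). Among neighbours in this order the libraries of +/12 and +/- overlapped, as did those of 12/- and +/vg and those of 12/vg and +/vg, while 12/- lay below +/-.

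Set against +/+, the log2 difference of Slit2 was -0.75 ± 0.15 (SE) in 12/-, -0.48 ± 0.15 in +/12, -0.58 ± 0.15 in +/- and -0.82 ± 0.15 in +/vg. These 4 share the +/+ libraries and are given without a test. The genotype with dysfunction lay within the range of the 3 with normal development. Set against the other genotypes, 12/- differed by -0.27 ± 0.15 from +/12, by -0.17 ± 0.15 from +/- and by 0.07 ± 0.15 from +/vg. The 2 comparisons of Slit2 that use neither 12/- nor +/+ libraries were tested, and neither passed. Slit2 differed by 0.10 ± 0.15 in +/12 against +/- (limma adjusted p = 0.931) and by -0.24 ± 0.15 in +/vg against +/- (limma adjusted p = 0.645).

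All +/+ libraries had high table numbers. Within the high range, Slit2 ran from 1.41 to 2.13 scaled FPKM in the 4 libraries of +/- and +/vg, against 3.28 to 4.11 in +/+. With the number range as a covariate the difference of 12/- from +/+ was -0.65 on the log2 scale. Cardiomyocyte markers summed to 18.2 to 25.2 scaled FPKM in 12/-, 15.2 in 12/vg, 19.4 to 33.2 in +/12, 9.94 to 34.3 in +/-, 25.9 to 29.9 in +/vg and 20.0 to 55.9 in +/+ libraries, and their part in the Slit2 levels was not tested. Neural tube markers, of a tissue that also makes Slit2, summed to 0.523 to 1.29 in 12/-, 1.09 to 2.00 in +/12 and 1.17 to 3.34 in +/-. They summed to 1.73 to 2.22 in +/vg, and to 0.706, 3.59 and 0.665 in the +/+ libraries with Slit2 at 3.28, 4.11 and 3.28. Their part in the Slit2 levels was not tested either.

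Slit3 (chr11:34934958-35522009), the other Slit ligand that could be tested, overlapped in all 5 groups of 3 libraries. Slit1, at 0.0649 scaled FPKM over all libraries, was too low to test. Slit3 averaged 1.54 ± 0.455 scaled FPKM in 12/-, 1.72 ± 0.178 in +/12, 1.39 ± 0.604 in +/-, 1.63 ± 0.262 in +/vg and 1.83 ± 0.786 in +/+ libraries. The 12/vg library, at 4.11, was the highest of the 16, above 2.65 in +/+ replicate 3. It is 1 shallow library, with 1.02-fold coverage of the Slit3 transcript, so this level has no replicate. Slit3 passed no test in the 9 comparisons, with log2 differences from -0.24 to 0.21 and a smallest limma adjusted p of 0.800. The 95% interval of the 12/- difference from +/12 ran from -0.59 to 0.38.

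Robo1 (chr16:72663394-73046345), a Slit receptor of axons and of endothelium, passed no test. It averaged 5.16 ± 0.678 scaled FPKM in 12/-, 6.60 in the 12/vg library, 6.21 ± 0.809 in +/12, 5.42 ± 1.71 in +/-, 5.90 ± 0.414 in +/vg and 5.36 ± 0.339 in +/+ libraries. Neighbours in the order of the means overlapped at every step. Over 9 tested comparisons the log2 difference lay between -0.23 and 0.19 and the smallest limma adjusted p was 0.810. Its paralogue Robo2 (chr16:73892551-74411157) lay between 0.00176 and 0.195 scaled FPKM in the 16 libraries, with at most 0.383-fold coverage of its transcript, and no order can be read from such values.

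Robo4 (chr9:37209631-37221607), the endothelial Robo, had its lowest means in 12/vg and wild-type embryos. It stood at 30.9, 15.5 and 21.2 scaled FPKM in 12/-, 11.8 in 12/vg, 19.3, 15.0 and 16.1 in +/12, 16.5, 12.3 and 25.3 in +/-, 16.0, 16.9 and 23.8 in +/vg, and 13.8, 12.4 and 14.5 in +/+ libraries. All 12/-, +/12 and +/vg libraries lay above all +/+ libraries, while +/- overlapped them. The means were 22.5 ± 7.81 in 12/-, 16.8 ± 2.22 in +/12, 18.0 ± 6.63 in +/-, 18.9 ± 4.27 in +/vg and 13.6 ± 1.06 in +/+. In the order of these means the other neighbours overlapped, and +/12 lay above +/+, which lay above 12/vg.

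The log2 difference of Robo4 from +/+ was 0.64 ± 0.26 in 12/-, given without a test. It was 0.28 ± 0.26 in +/12 (limma adjusted p = 0.938), 0.33 ± 0.26 in +/- (limma adjusted p = 0.767) and 0.43 ± 0.26 in +/vg (limma adjusted p = 0.771). None passed, nor did 12/- against +/12, +/- or +/vg, with 0.36, 0.31 and 0.21 (smallest limma adjusted p = 0.670). The low-number libraries ran from 11.8 to 30.9 and the high-number ones from 12.3 to 16.9, and the 1 low-number library of +/- and of +/vg was the highest of its group. With the number range as a covariate the 12/- difference from +/+ was -0.01. Without 12/- replicate 1 it was 0.40. The 10 endothelial markers summed to 974 to 1154 scaled FPKM in 12/-, 963 in 12/vg and 868 to 989 in +/12. They summed to 902 to 1000 in +/-, 917 to 960 in +/vg and 845 to 951 in +/+. Their part in the Robo4 levels was not tested.

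Plxnd1 (chr6:115904829-115945023), the semaphorin receptor of embryonic vessels, was the most abundant of the 8, and of the 6 tested its highest library was the smallest multiple of its lowest, 1.63. It averaged 123 ± 26.9 scaled FPKM in 12/-, 127 in the 12/vg library, 113 ± 11.1 in +/12, 113 ± 21.0 in +/-, 110 ± 4.02 in +/vg and 109 ± 14.0 in +/+ libraries. Every pair of groups with 3 libraries overlapped, and the 16 libraries spanned 94.9 to 154. The highest was 12/- replicate 1. Plxnd1 passed no test in 9 comparisons, with log2 differences from -0.02 to 0.14 and a smallest limma adjusted p of 0.808. Against +/12, the 12/- difference was 0.11 ± 0.17, with a 95% interval from -0.26 to 0.47.

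The semaphorin ligands Sema3c and Sema3f differed in level. Sema3c (chr5:17080634-17236085), which signals through neuropilins with plexins, plexin D1 among them, was between 0 and 0.231 scaled FPKM in the 16 libraries, with at most 0.250-fold coverage. Sema3f (chr9:107583833-107612806), a ligand of neuropilin 2 that repels axons and endothelial cells, was highest in 12/- embryos. It stood at 3.25, 2.31 and 2.86 scaled FPKM in 12/-, 1.90 in 12/vg, 0.633, 1.39 and 1.44 in +/12, 0.695, 1.48 and 1.21 in +/-, 1.02, 1.18 and 0.779 in +/vg, and 0.980, 1.75 and 0.924 in +/+ libraries. All 3 12/- libraries lay above the 12 libraries of the 4 genotypes with normal development, as for 1.91% of the genes tested. The 12/vg library lay between the 2 sets, close to the highest +/+ library. It is 1 shallow library, with 0.470-fold coverage of the Sema3f transcript, so its place has no replicate. The libraries of the 4 normal genotypes overlapped one another.

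Sema3f averaged 2.81 ± 0.470 scaled FPKM in 12/-, 1.16 ± 0.453 in +/12, 1.13 ± 0.398 in +/-, 0.993 ± 0.201 in +/vg and 1.22 ± 0.463 in +/+ (SD, n = 3 each). The log2 difference of 12/- was 0.84 ± 0.22 from +/12 (limma adjusted p = 0.283), 0.85 ± 0.22 from +/- (limma adjusted p = 0.131) and 0.93 ± 0.22 from +/vg (limma adjusted p = 0.104). None passed over the 10550 genes tested. From +/+ it was 0.79 ± 0.22, given without a test. The 4 comparisons share the 12/- libraries. Among the 4 normal genotypes the log2 differences of Sema3f lay between -0.14 and 0.01.

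Whether the deleted allele went with a different Sema3f level beside the 12 allele than beside a wild-type allele was tested as an interaction. Sema3f differed by 0.84 between 12/- and +/12 and by -0.06 between +/- and +/+. The interaction, the first difference minus the second, was 0.89 ± 0.31 (limma adjusted p = 0.690) and did not pass. It takes the sum of the 12/- and +/+ levels, not the difference on which the set was chosen. All 12/- libraries had low table numbers, and the other 6 low-number libraries ran from 0.633 to 1.90, all under the lowest 12/- library. Epithelial markers summed to 18.5 to 35.3 scaled FPKM in 12/-, 29.0 in 12/vg, 7.45 to 67.5 in +/12, 7.23 to 31.0 in +/-, 7.89 to 25.7 in +/vg and 16.7 to 31.7 in +/+, and their part in the Sema3f levels was not tested.

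**Figure D2:**
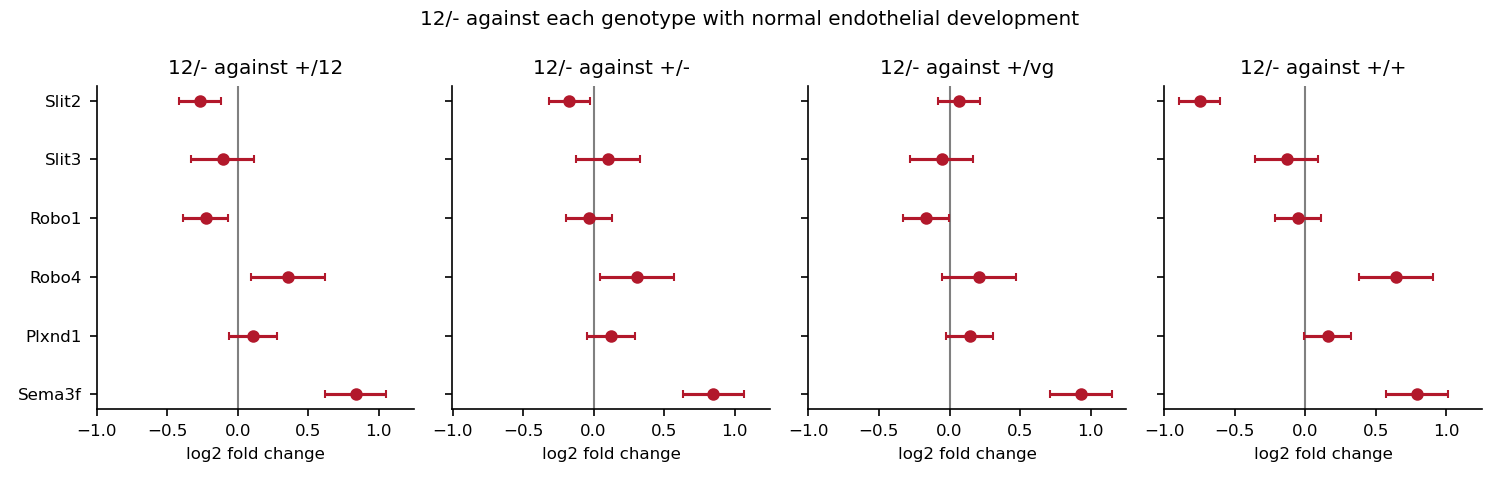
Log2 fold change (horizontal axis, bars are 1 SE) of the 6 guidance genes tested, for 12/- against each genotype with normal endothelial development, 1 panel per genotype. Sema3f lies between 0.79 and 0.93 in all 4 panels, and Slit2 lies at -0.75 against +/+ and between -0.27 and 0.07 against the others.

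Over the whole set, no guidance gene was called in any comparison that could be tested. A call was a limma adjusted p under 0.05, and a gene was counted as apart where the libraries of the groups did not overlap. In 12/- against +/12, 0 of 5 genes were called (0.209% of all genes tested were), and 1 of 6, Sema3f, was apart (14.8% of all). In 12/- against +/-, 0 of 5 were called (0.569% of all) and 2 of 6 were apart (14.2% of all), Sema3f higher and Slit2 lower. In 12/- against +/vg, 0 of 5 were called (0.445% of all) and Sema3f alone of the 6 was apart (20.7% of all). Sema3f alone had an unadjusted p under 0.05 in these 3 comparisons and in the interaction, where 0 of 5 genes were called (0.0474% of all). In 12/- against +/+, without a test, 3 of 6 were apart (19.8% of all), with Sema3f and Robo4 higher and Slit2 lower. The set was chosen on Slit2 in this pair, so nothing is read from this count against its share. Nor is anything read from Slit2 in the other counts of genes apart that use 12/- or +/+ libraries.

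Among the genotypes with normal development limma called none of the guidance genes it tested, and none of those had an unadjusted p under 0.05. Slit2 was not tested against +/+. In +/12 against +/-, 0 of 6 were called (0% of all) and 0 of 6 were apart (7.83% of all). In +/12 against +/+, 0 of 5 were called (0% of all) and 2 of 6 were apart (12.6% of all), Robo4 higher and Slit2 lower. In +/- against +/+, 0 of 5 were called (0% of all) and Slit2 was apart (7.79% of all). In +/vg against +/+, 0 of 5 were called (0% of all) and 2 of 6 were apart (13.6% of all), again Robo4 and Slit2. In +/vg against +/-, 0 of 6 were called (0% of all) and Slit2 was apart (10.5% of all). Slit2, Robo4 and Sema3f were thus each apart in at least 1 of these 9 comparisons, and Slit3, Robo1 and Plxnd1 in none of them. Of the comparisons with Slit2 apart, only +/vg against +/- used neither 12/- nor +/+ libraries, on which its choice rested.

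The wider guidance pathways held 100 other listed genes, of which 65 could be tested. In these comparisons 0% to 0.597% of all genes tested were called, the highest share in 12/- against +/+. Of the 65, 1 was called, the semaphorin Sema4g in 12/- against +/-, which reached the tests only through its 12/- libraries. The median log2 difference of the 65 lay between -0.04 and 0.04 in all 10 comparisons. Of the other Slit and Robo pathway genes, 17 of 20 were tested and 0 called in the 10 comparisons (0% to 0.597% of all genes), with list medians from -0.05 to 0.08. The highest in level were Unc5b, an endothelial receptor that Robo4 binds, at 28.2 scaled FPKM, and Dag1, the dystroglycan that binds Slit in the matrix, at 21.0. Unc5b averaged 33.0 ± 10.8 in 12/-, 58.5 in the 12/vg library, 22.8 ± 6.39 in +/12, 31.0 ± 13.0 in +/-, 20.4 ± 3.61 in +/vg and 23.7 ± 4.95 in +/+. Dag1 averaged 25.3 ± 0.776 in 12/-, 21.5 ± 2.12 in +/12, 17.7 ± 6.15 in +/-, 21.3 ± 2.01 in +/vg and 20.2 ± 1.84 in +/+.

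No co-receptor or effector of semaphorins that was tested passed. Of the other plexins and neuropilins, 8 of 10 were tested and 0 called (0% to 0.597% of all genes). Plxna3 and Plxnb3, at 0.632 and 0.0653 scaled FPKM, were too low to test. Nrp2, the co-receptor for Sema3f, averaged 35.7 ± 4.88 scaled FPKM in 12/- against 32.4 ± 2.95 in +/12, 31.8 ± 3.33 in +/-, 36.9 ± 2.83 in +/vg and 36.9 ± 6.58 in +/+. Nrp1, co-receptor of other class 3 semaphorins and of VEGF, averaged 17.5 ± 1.55 in 12/- against 16.1 ± 2.10 in +/12, 16.7 ± 3.94 in +/-, 15.7 ± 0.431 in +/vg and 16.1 ± 1.54 in +/+. Of 21 plexin effectors and partners, 19 were tested and 0 called (0% to 0.597% of all genes), and Rnd1 and Farp2, at 0.657 and 0.528 scaled FPKM, were too low to test. The GTPases Rac1 and Cdc42 led them, with averages of 146 and 111 scaled FPKM over all libraries.

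Other guidance families held no call either, where 0% to 0.597% of all genes were called. Of 10 netrins, UNC5 receptors and relatives, 2 were tested. Neo1, a receptor of netrins and repulsive guidance molecules, averaged 6.28 ± 0.902 in 12/-, 7.59 ± 0.274 in +/12, 8.61 ± 1.01 in +/-, 7.68 ± 0.436 in +/vg and 7.82 ± 0.661 scaled FPKM in +/+ (smallest limma adjusted p = 0.185). Unc5a, a netrin receptor, averaged 1.09 ± 0.432 in 12/-, 1.34 in the 12/vg library, 0.811 ± 0.318 in +/12, 1.34 ± 0.720 in +/-, 0.184 ± 0.199 in +/vg and 1.48 ± 0.279 in +/+. Of 21 ephrins and Eph receptors, 8 were tested. Ephb4, the receptor of venous endothelium, averaged 41.7 ± 6.65 in 12/-, 46.1 in the 12/vg library, 34.7 ± 5.03 in +/12, 35.6 ± 3.18 in +/-, 32.9 ± 3.62 in +/vg and 32.9 ± 3.82 in +/+. Its ligand Efnb2, of arterial endothelium, averaged 26.6 ± 6.33 in 12/-, 26.7 in the 12/vg library, 28.4 ± 4.03 in +/12, 31.8 ± 6.00 in +/-, 38.3 ± 10.5 in +/vg and 30.8 ± 2.43 in +/+.

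**Figure D3:**
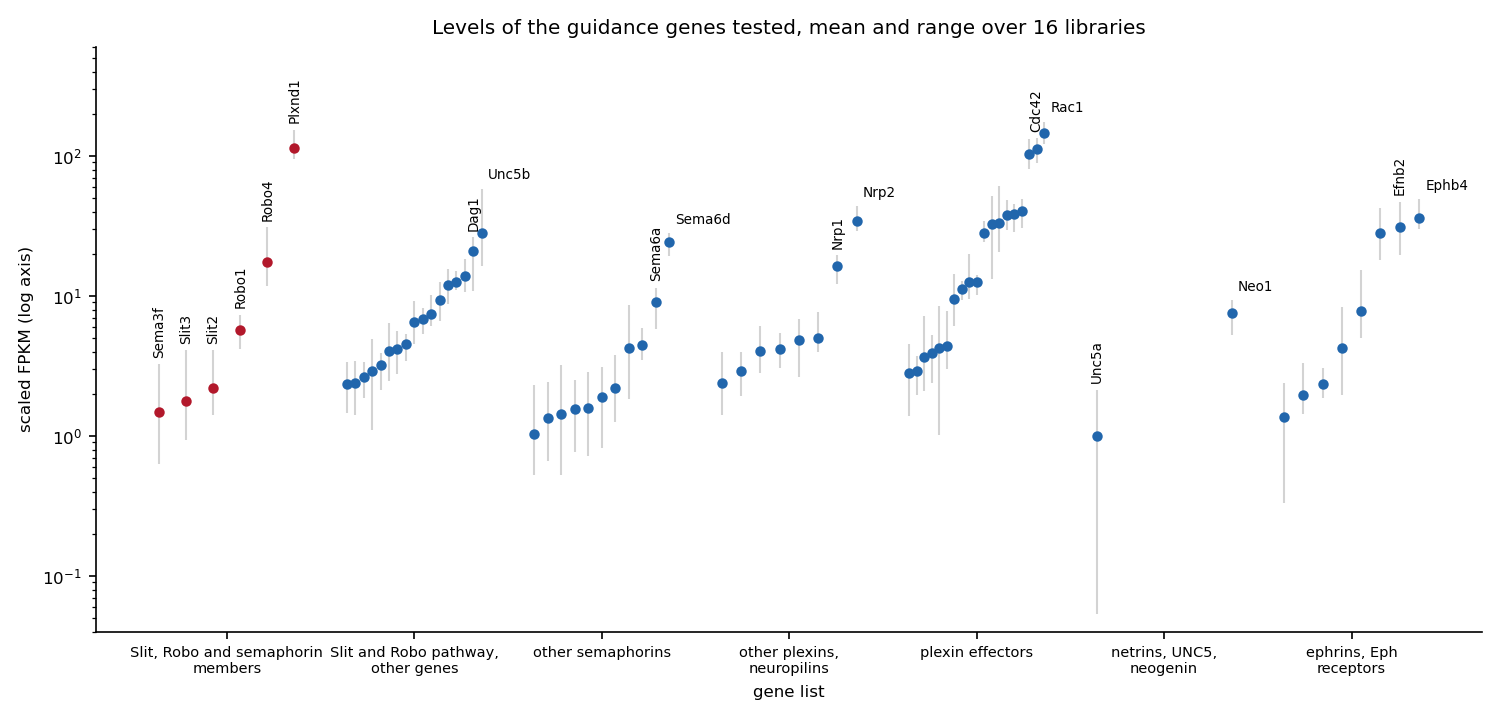
Mean scaled FPKM over 16 libraries (points, log axis) and the range from the lowest to the highest library (grey lines) for the guidance genes tested, by gene list, with the 6 Slit, Robo and semaphorin genes in red and the highest of each other list named. Plxnd1 (94.9 to 154) is on a level with the GTPases Rac1 and Cdc42, and Slit2, Slit3 and Sema3f are among the low genes tested.

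Of the 18 other semaphorins, 11 were tested and 1 was called, in 12/- against +/- (0.569% of all genes tested). The log2 difference of 12/- was above 0 for 5 of the 11 against +/12, 5 against +/-, 6 against +/vg and 7 against +/+. Sema4g, a transmembrane class 4 semaphorin, stood at 2.32, 1.82 and 1.68 scaled FPKM in 12/-, 0.754 in 12/vg, 0.733, 0.988 and 0.880 in +/12, 0.522, 0.655 and 0.804 in +/-, 0.717, 0.890 and 0.892 in +/vg, and 0.990, 1.02 and 0.891 in +/+ libraries. Every 12/- library lay above every other library. In 1.91% of the genes tested all 12/- libraries lay above the 12 libraries of the 4 normal genotypes. Its mean was 0.817 FPKM without the 12/- libraries, under the minimum for testing, so it reached the tests through the group in which it was high, and its differences are given as a description. The log2 difference of 12/- was 0.65 ± 0.16 from +/12, 0.82 ± 0.16 from +/-, 0.68 ± 0.16 from +/vg and 0.58 ± 0.16 from +/+. For the same reason nothing is read from the call against +/-, which held in 7 of 18 alternatives. It was lost with the number range as a covariate and without any 1 of the 3 12/- libraries or of +/- replicates 1 and 2.

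Sema6b, a transmembrane class 6 semaphorin that was chosen after its values were seen, was likewise highest in 12/- and next highest in 12/vg. It averaged 7.04 ± 1.35 scaled FPKM in 12/-, 4.86 in the 12/vg library, 3.17 ± 1.18 in +/12, 3.88 ± 0.974 in +/-, 3.56 ± 0.954 in +/vg and 3.55 ± 1.09 in +/+ libraries. The lowest 12/- library, 5.99, was above the highest of the other libraries. All 12/- libraries lay above those of the 4 normal genotypes in 1.91% of the genes tested. No difference passed, with limma adjusted p from 0.204 to 0.289 against the 4 normal genotypes. Sema6d was the most abundant semaphorin, at 24.3 scaled FPKM over all libraries.

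**Figure D4:**
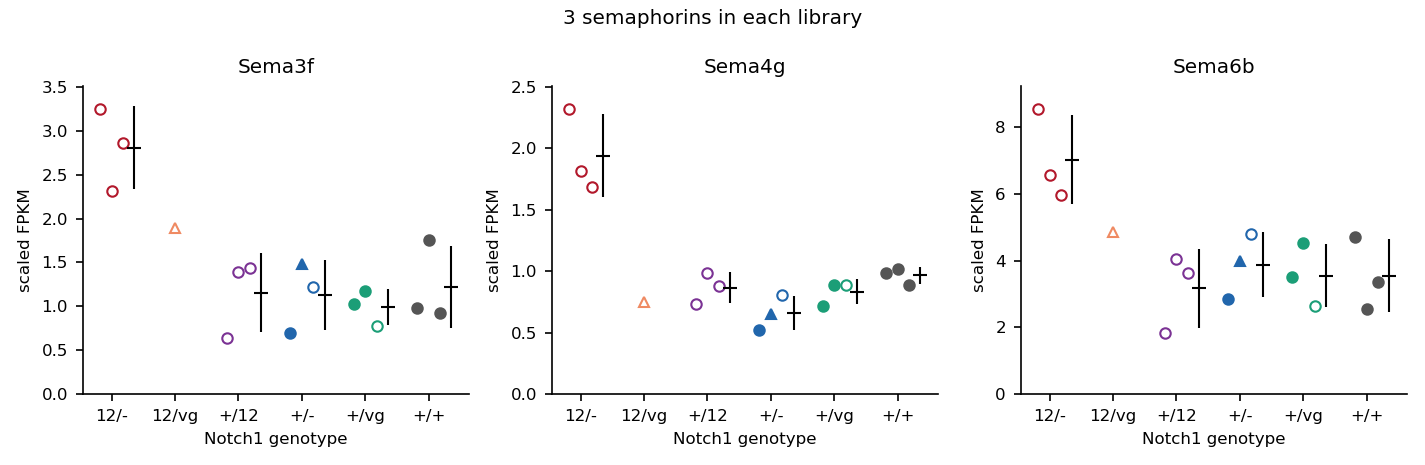
Scaled FPKM (vertical axis from 0) of Sema3f, Sema4g and Sema6b in each of 16 libraries by Notch1 genotype, with marks and bars as in the plot of the 8 guidance genes by library. In all 3 panels the 3 12/- libraries lie above every other library. Of all genes tested, 1.91% had them above the libraries of the 4 normal genotypes, a share that leaves 12/vg aside. Sema4g reached the tests only through its 12/- libraries, and Sema6b was chosen after its values were seen. So the 3 panels are a description, and nothing is read from their likeness. The 12/vg library is the next highest for Sema3f (1.90) and Sema6b (4.86) but not for Sema4g (0.754).

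For each of the 6 tested guidance genes, the 3 genes with the most similar pattern were those with the highest Pearson's r over the 16 libraries, on log2(scaled FPKM + 1). These r describe points that share libraries, depth and genotype, and carry no p. Slit2 was most like Gmcl1 (r = 0.88), Gcsh (0.81) and Wdr12 (0.79). Gmcl1, a gene with a BTB domain, was also highest in wild type, with 2.54 ± 0.347 scaled FPKM in 12/-, 2.77 ± 0.443 in +/12, 2.58 ± 0.371 in +/-, 2.34 ± 0.0541 in +/vg and 3.70 ± 0.238 in +/+ libraries. The 99th percentile of r with Slit2 over the genes compared was 0.65, which the 3 highest exceed by construction. The Slit2 levels of 12/- and +/+ were used in the choice of the set, so nothing is read from this likeness.

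Sema3f was most like Aldoa (r = 0.94), P4ha1 (0.90) and Pkm2 (0.89). The 99th percentile of r with Sema3f was 0.73, which the 3 highest also exceed by construction. Aldoa and Pkm2 encode glycolytic enzymes and P4ha1 a collagen prolyl hydroxylase. Aldoa averaged 600 ± 62.5 scaled FPKM in 12/-, 447 in the 12/vg library, 319 ± 49.2 in +/12, 290.3 ± 36.4 in +/-, 297 ± 48.4 in +/vg and 308 ± 16.4 in +/+ libraries. The 12/- libraries lead for both genes, with 12/vg next. Aldoa was picked by its r with Sema3f over these same libraries, so nothing is read from the shared order. P4ha1 averaged 18.4 ± 2.50 in 12/-, 12.3 in the 12/vg library, 7.63 ± 1.73 in +/12, 9.36 ± 2.30 in +/-, 6.53 ± 1.22 in +/vg and 7.00 ± 0.289 in +/+. In +/- replicate 2, the other shallow library, it stood at 12.0, near the 12/vg level.

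**Figure D5:**
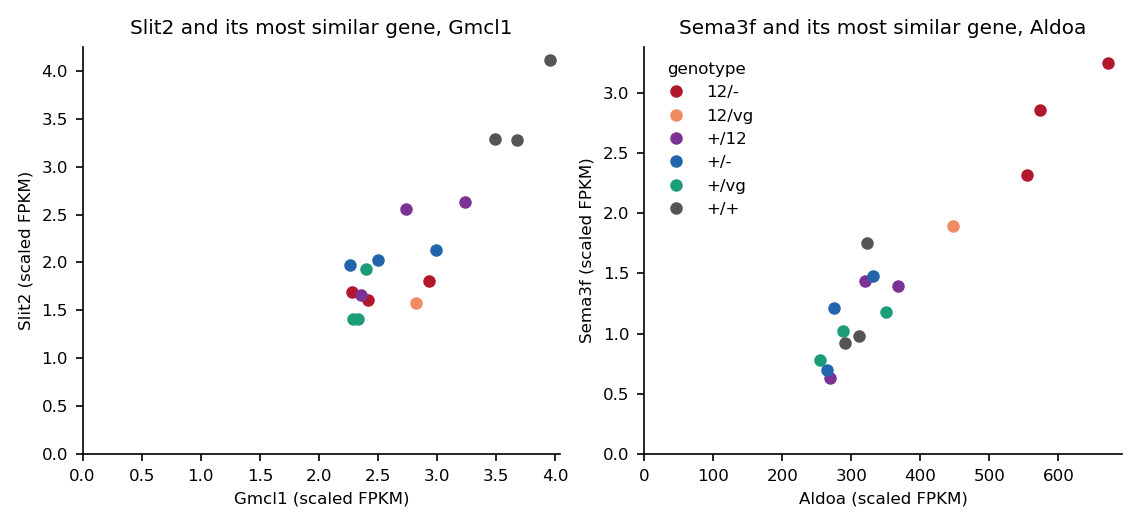
Scaled FPKM of Slit2 against Gmcl1 (left) and of Sema3f against Aldoa (right), 1 point per library, coloured by Notch1 genotype. The 3 +/+ libraries sit at the upper right for Slit2 and Gmcl1 (r = 0.88 over 16 libraries), and the 3 12/- libraries at the upper right for Sema3f and Aldoa (r = 0.94). Gmcl1 and Aldoa were picked by their r over these libraries.

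Robo4 was most like Trp53i11 (r = 0.88), Gnb2 (0.87) and Sqstm1 (0.86), Plxnd1 most like Cul7 (0.90), Actn4 (0.90) and Adam19 (0.88), and Robo1 most like Bag3 (0.80), Siah2 (0.80) and Crtc1 (0.77). Slit3 was most like Stx1a (0.89), Pip5k1c (0.84) and Mrps2 (0.82). Without the 2 shallow libraries, among them the 12/vg library with the highest Slit3, these 3 values for Slit3 were 0.75, 0.55 and 0.53, so they rest in part on those libraries. Among the guidance genes themselves, not picked by their r, the highest r was 0.52, between Slit3 and Robo1 (0.33 over 14 libraries). The lowest was -0.48, between Slit2 and Robo4 (-0.68 over 14 libraries).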

How the data were processed

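RNA of CD31-positive endothelial cells, sorted from whole embryos and made into tagmentation libraries per the labels' protocols, was measured in 16 libraries of 6 Notch1 genotypes. Per the submitters' processing notes, the alignment was to mm9 and the tools include TopHat2 2.0.9. The authors deposited 1 table per library in the layout of cufflinks, with an FPKM value and a coverage signal for each of 28107 RefSeq transcripts, per the file headers. FPKM is not a count, and no counting interval is given. Within a library, deposited coverage divided by FPKM was 1 constant (relative spread at most 1.76e-05), the aligned sequence in gigabases, so low values are least precise in the 2 shallow libraries. Reads of overlapping or near-identical genes could be split between them.

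Sums of FPKM per gene symbol were made in Python 3.11.15 (pandas 2.3.3). Any transcript status other than OK in any library led to removal of the symbol (211 symbols), and tests covered the 10550 genes whose mean FPKM reached 1. Libraries were scaled by median-ratio factors over 8638 genes (0.85 to 1.13). The linear models were made on log2(scaled FPKM + 1) of all libraries in 6 groups, using lmFit and eBayes with trend=TRUE of limma 3.58.1 (R 4.3.3), two-sided. Fold changes are on that scale and understate the change of low genes. The Benjamini-Hochberg adjustment ran over all genes tested, and an adjusted p-value under 0.05 was a call. Tested on simulated data for 12/- against +/12 (10550 genes), the fit recovered 68 of 100 genes changed by 1 and 93 of 100 changed by 2 on the log2 scale. It also called 7 of 10350 unchanged genes. The changed genes were drawn from all genes tested, so these rates are not those of low genes. More genes were called there than the 22 called in the data, and the noise of each gene was drawn on its own. So the rates may be too high for the data.

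The guidance genes, the pathway and marker lists and the tests were chosen with earlier results of these data known. Named beside the 8 genes are called genes of the other lists, the 2 most abundant genes of a list without a call, and the 3 genes with the highest r per tested gene, without predicted genes, small RNA genes and genes of embryo sex. Sema6b, Sema6d and the genes too low to test fall outside this rule and were named after their values were seen. Replicate numbers follow deposit order within a genotype and pair nothing. Alternatives were other scalings, pseudocounts, filters, moderation, weights and transcript choices, the compared groups alone, a covariate for the number range, and leaving out the shallow libraries or each replicate.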

Additional observations from a re-analysis of the deposited data

How the results depend on the processing

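Under the alternatives, 176 of 177 counts of called guidance genes were 0. The exception was 12/- against +/vg with array weights, where 1 was called, Sema3f (limma adjusted p = 0.0299), and the cause was not tested. Over its alternatives the log2 difference of Sema3f in 12/- ran from 0.65 to 1.28 against +/12 (limma adjusted p from 0.0769 to 1) and from 0.85 to 1.42 against +/vg (limma adjusted p from 0.0299 to 0.410). Without scaling, 1 of 40 group levels, that of Slit2 in +/-, moved by more than its SD. Without the shallow libraries, 5 of the 18 most similar genes were still among the first 3 of their gene. With the number range as a covariate, estimated from +/- and +/vg alone, the difference of Robo4 in 12/- against +/+ was -0.01 in place of 0.64. The counts of called genes over all genes tested depended on the settings. They ran from 3 to 92 in 12/- against +/12 (22 in the analysis reported) and from 5 to 156 against +/- (60). Against +/vg they ran from 26 to 183 (47) and against +/+ from 20 to 143 (63). No paired analysis was possible because the labels carry no replicate numbers, and those used here follow deposit order. Slit2, Slit3 and Sema3f lie near 2 FPKM, where the 2 shallow libraries limit precision, and 12/vg has 1 library.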
